A study of Homo sapiens with 32 samples.

Results

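The 4 libraries described here came from MDA-MB-231, a human triple-negative breast cancer line with a mesenchymal shape. They are 2 RNA-seq libraries of G579S cells and 2 of wild-type cells, each group kept in DMSO, the solvent of the drug, with no drug added, for 6 h. They were chosen by their titles and make up 4 of the 32 libraries of the series, which covers A375 (a melanoma line), Cal51 (a breast cancer line), DLD1 (a colorectal cancer line) and MDA-MB-231 as G579S and wild-type cells, with DMSO or with 100 nM OTS964. The design text calls wild-type cells sensitive and G579S cells resistant to CDK11 inhibition. The labels do not say how the mutation was made or whether the G579S cells are 1 clone or many. They also do not say whether a group's 2 libraries stem from different cultures. The p-values rest on the spread between libraries of a group, pooled over all 32 libraries of the series. This spread may be technical.

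CDK11 is a protein kinase encoded by a pair of near-identical neighbouring genes, CDK11B and CDK11A. It works with cyclins L1 and L2 in transcription and in the activation of the spliceosome, and OTS964 inhibits it by binding to its kinase domain. The label G579S names a glycine that becomes a serine, and the glycine codon that fits that number in the reference lies just before the codons of the conserved Asp-Phe-Gly motif of the kinase domain. The reference sequence around it is shown because the comparison is between cells with and without a change at this codon, and because the reads of CDK11A and CDK11B have to be told apart by such short differences. In the GENCODE annotation of build GRCh38 the codon has the number of the label in the 795-codon CDK11B transcript ENST00000407249, in exon 16 of 20 on the minus strand, at chr1:1636999-1637001. In the 782-codon CDK11B transcript ENST00000341832 the same codon is number 566. The CDK11A counterpart is codon 564 of ENST00000404249 at chr1:1704141-1704143, and the CDK11A window differs from the CDK11B window at 2 of 33 bases. Capitals mark the glycine codon, and both sequences run 5′ to 3′ on the coding strand.
CDK11B codon of G579S: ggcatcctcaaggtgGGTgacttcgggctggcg
CDK11A counterpart: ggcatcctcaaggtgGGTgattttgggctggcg
Over the whole length of ENST00000341832, 1882 of 2968 runs of 31 bases (63.4%) also occur in a CDK11A transcript, and over its coding part 1682 of 2316 (72.6%), so counts of the paired genes are uncertain wherever reads fell on shared sequence. The deposited tables hold no base calls, and the mutation itself was not checked.

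The libraries held between 17770917 and 23560613 estimated reads, of which 85.62% to 87.4% lay on identifiers matched to a gene symbol. Levels are given as CPM, a gene's reads per 1000000 reads on genes, scaled by the TMM method, which puts libraries on 1 scale by the bulk of their genes. Differences are log2, G579S minus wild-type, from edgeR's quasi-likelihood test over 14317 genes, and a gene is called where its Benjamini-Hochberg adjusted p is below 0.05. Across genes, the mean log2 profile of G579S cells had a Pearson correlation of 0.98 with that of wild-type MDA-MB-231 cells, 0.842 with wild-type A375 cells and 0.825 with wild-type Cal51 cells. The summed level of 11 markers of the line, VIM and CAV1 among them, was 9172 and 9331 CPM in G579S libraries, against 10040 and 9941 CPM in wild-type libraries. Melanocyte markers summed to 10.5 and 9.65 CPM in G579S libraries, against 18.7 and 23.6 CPM in wild-type libraries, and immune markers to 1.5 and 2.41 CPM, against 6.77 and 6.72 CPM. None of the 7 melanocyte and 3 immune markers tested was called by edgeR. Of the melanocyte markers 1 higher and 2 lower had an unadjusted p below 0.05, and DESeq2 called 1 higher and 1 lower. Of the immune markers 1 was lower by both measures. Of all 14317 genes, 2858 had an unadjusted p below 0.05 in edgeR, and DESeq2 called 891 higher and 999 lower. Identifiers of predicted transcripts held 12.62% to 12.9% of the reads in G579S libraries, against 11.68% to 11.93% in wild-type libraries, and the part of this difference in the results was not tested. The libraries labelled DLD1 wild-type went against their label: SOX10, a melanocyte transcription factor, had 0.938 and 1.63 CPM in DLD1 G579S libraries with DMSO, against 737 and 695 CPM in those labelled DLD1 wild-type, while wild-type A375 libraries had 583 and 601 CPM. DLD1 was therefore not set beside MDA-MB-231, and without the 4 DLD1 wild-type libraries in the fit CDK11B kept its call and 1367 genes, in place of the 1043 given below, were called.

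CDK11B itself stood apart. It had 605 and 672 CPM in G579S libraries, against 61.8 and 56.4 CPM in wild-type libraries. The groups did not overlap, and the difference was 3.43 ± 0.17 (SE) on the log2 scale (adjusted p = 1.98e-10). Per length, CDK11B was at 504 and 549 TPM (the share of transcripts per 1000000) in G579S libraries, where it was the 250th and 230th most abundant gene, against 45.5 and 42.4 TPM in wild-type libraries, where it ranked 3253rd and 3447th. The sum of CDK11A and CDK11B, which does not depend on how reads were split between them, differed by 2.85 ± 0.13 (adjusted p = 6.18e-11). In A375 the gene averaged 52.4 CPM in G579S and 48.6 CPM in wild-type cells (adjusted p = 0.836). In Cal51 it averaged 32.5 CPM in G579S and 47.2 CPM in wild-type cells and was lower in G579S (-0.54, adjusted p = 0.0268). The MDA-MB-231 difference exceeded that of A375 by 3.32 (adjusted p = 2.04e-08) and that of Cal51 by 3.97 (adjusted p = 1.47e-09).

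The surplus lay on 1 CDK11B transcript. NM_033486.1, of 2487 bases in the deposited tables, had 10110 and 15090 estimated counts in G579S libraries, against 867 and 797 in wild-type libraries, a log2 difference of 3.89 ± 0.23 in a test over all transcript identifiers, 0.921% of which were called (adjusted p = 1.34e-08). It made up 96.4% and 96.7% of the gene's counts in G579S libraries, against 69.8% and 67.8% in wild-type libraries. The other CDK11B transcripts overlapped between the groups. XM_006711065.1 had 77 and 307 counts in G579S libraries, against 188 and 120 in wild-type libraries, NM_033489.1 had 298 and 214, against 187 and 259, and NM_033487.1 was listed at 0 in all 4. The test of transcript usage, which asks whether the make-up of a gene's transcripts differs, did not call CDK11B (adjusted p = 1, unadjusted p = 0.128). The transcript with the 795-codon reading frame, NM_001787, was not analysed here, and the codon of the mutation is number 566 in the later version of NM_033486.

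**Figure D1:**
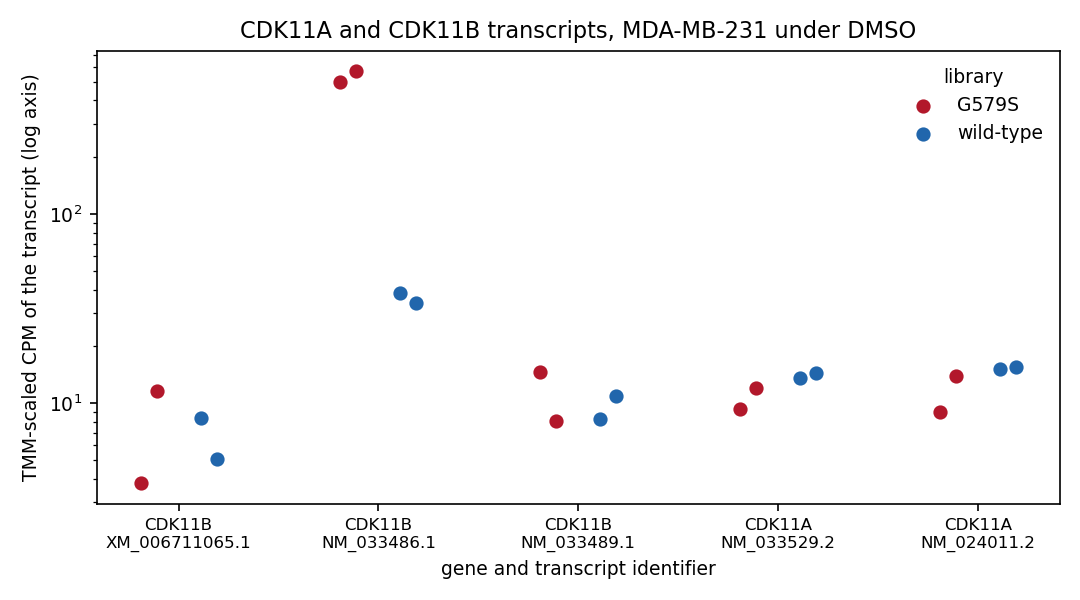
TMM-scaled CPM of each transcript of CDK11B and CDK11A, on a log axis, with 1 point per library, red for G579S and blue for wild-type MDA-MB-231 under DMSO. For NM_033486.1 the G579S points lie at 498 and 571 CPM, above the wild-type points at 38.5 and 33.8 CPM, and for the other CDK11B transcripts the colours overlap.

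Of 4 genes, CDK11A and the partner genes CCNL1, CCNL2 and SAP30BP, 1 was called. CDK11A had 21.5 and 29.6 CPM in G579S libraries, against 32.3 and 33.8 CPM in wild-type libraries, without overlap but not past the threshold (-0.37, adjusted p = 0.159). CCNL1, which encodes cyclin L1, had 12.4 and 6.93 CPM in G579S libraries, against 7.37 and 10.7 CPM in wild-type libraries, and CCNL2 had 15.9 and 26.1 CPM, against 18.2 and 20.4 CPM, so both overlapped. SAP30BP, which encodes a protein that joins CDK11 and cyclin L in an active complex, had 50.6 and 57.3 CPM in G579S libraries, against 71.1 and 69 CPM in wild-type libraries, and fell by 0.38 (adjusted p = 0.025, but 0.286 without G579S replicate 1). No gene in a list of 19 splicing kinases and SR proteins was called by edgeR. In that list 2 genes, both higher, had an unadjusted p below 0.05 and were called by DESeq2. The same measures took in 2858 and 1890 of all 14317 genes. Among 15 other transcription kinases and cyclins CDK13, a kinase of the RNA polymerase II tail, rose by 0.49 (adjusted p = 0.0362, but 0.313 without wild-type replicate 1), and among 10 SF3A and SF3B subunits SF3A2 fell by 0.60 (adjusted p = 0.0335, but 0.266 without G579S replicate 1).

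Across the genome 1043 of 14317 genes (7.29%) were called, 392 higher (2.74%) and 651 lower (4.55%) in G579S cells. Of these 131 were higher and 239 lower by 2-fold or more. The groups did not overlap in 8642 genes (60.4%). The count rested on all 4 libraries: it was 411 without G579S replicate 1, 503 without G579S replicate 2, 425 without wild-type replicate 1 and 430 without wild-type replicate 2, and 283 genes (27.1%) were called in all 4 of these fits. It was 280 of 12352 genes tested in a fit of the MDA-MB-231 libraries alone, where the genes tested, the scaling and the spread all come from those libraries, and 233 of the 280 were among the 1043. For genes named below, a call is said to hold where the adjusted p stayed below 0.05 with each of these 4 libraries left out in turn, and otherwise the highest adjusted p of those fits is given as "up to".

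Among the genes with the largest rises, COL1A2, a chain of type I collagen, had 25.2 and 22.9 CPM in G579S libraries, against 1.44 and 2.06 CPM in wild-type libraries (3.77 ± 0.33, adjusted p = 1.03e-06). SMAD6, an inhibitor of bone morphogenetic protein signalling, had 4.79 and 5.3 CPM in G579S libraries, against 0.598 and 0.959 CPM in wild-type libraries (2.68 ± 0.25, adjusted p = 1.64e-06). ALPP, the placental alkaline phosphatase, which has close paralogs, had 15.2 and 18.3 CPM in G579S libraries, against 3.24 and 3.6 CPM in wild-type libraries (2.29 ± 0.29, adjusted p = 5.58e-05). Each of these had 2 tight pairs of libraries with a wide gap between them. ALDH5A1, the succinate semialdehyde dehydrogenase, rose by 2.22 ± 0.17 (adjusted p = 6.07e-08), the membrane protein gene IGSF3 by 2.25 ± 0.34 (adjusted p = 0.000328) and IL7R, the receptor of interleukin 7, by 2.20 ± 0.40 (adjusted p = 0.00243). All 6 calls held.

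Other genes with large rises rested on libraries at or near 0. PHF14, a chromatin reader, had 10.8 and 11.5 CPM in G579S libraries and was listed at 0 in both wild-type libraries, at least 76.1-fold higher when the wild-type level is set to a floor of 3 counts per library, and its call held (adjusted p = 1.58e-07), but with OTS964 it had 10.43 and 5.61 CPM in G579S libraries, against 2.85 and 5.58 CPM in wild-type libraries, and was not called (adjusted p = 0.106). OTUD4, a deubiquitinase, had 18 and 34.2 CPM in G579S libraries and 0 in both wild-type libraries, at least 178-fold higher (adjusted p = 0.0151, up to 0.127). With OTS964, OTUD4 had 21.4 and 23.7 CPM in G579S libraries and 0 in both wild-type libraries (adjusted p = 0.00286). In Cal51 under DMSO it had 22.1 and 40.9 CPM in G579S libraries and 0 in both wild-type libraries (adjusted p = 0.00667). In A375 it was not called (adjusted p = 0.847). These tables come from an estimate that shares reads among transcripts, and replicates of a group also disagreed widely. At 0 in 1 G579S library with 5 CPM or more in its replicate were 73 genes, and 37 genes were so in the wild-type pair. Between the genotypes, 4 genes were at 0 in both wild-type and at 5 CPM or more in both G579S libraries, of which PHF14 and OTUD4 were called, and 1 gene was at 0 in both G579S and at 5 CPM or more in both wild-type libraries. SLC22A23 (adjusted p = 0.0185, up to 0.173), ARHGAP32 (adjusted p = 0.0486, up to 0.332) and TRIM29 (adjusted p = 0.0484, up to 0.303) were also among the 12 largest rises.

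The gene at 0 in both G579S libraries at that level was N4BP1, an RNase that restrains cytokine mRNAs. It was listed at 0 in both G579S libraries, against 31.2 and 29.7 CPM in wild-type libraries, at least 202-fold lower against the same floor (adjusted p = 1.98e-10), and the call held. It was at 0 in both G579S and both wild-type libraries of the line with OTS964 as well, while it averaged 37 CPM in G579S and 33.7 CPM in wild-type A375 cells, and 24.9 CPM in G579S and 38.9 CPM in wild-type Cal51 cells. NUP37, a subunit of the nuclear pore, was at 0 in both G579S libraries, against 7.22 and 4.65 CPM in wild-type libraries (at least 39.3-fold lower, adjusted p = 0.000973), and this call held. With OTS964 it was called the opposite way, with 0 and 2.6 CPM in G579S libraries and 0 in both wild-type libraries (adjusted p = 0.00276). PARM1, a mucin-like membrane protein, had 1 count over both G579S libraries, against 4.78 and 5.56 CPM in wild-type libraries. ROBO1, a guidance receptor, had 2 counts over both G579S libraries, against 8.61 and 9.21 CPM in wild-type libraries. The wild-type to G579S ratio of CPM was 210 for PARM1 (95% exact interval from 37.3) and 181 for ROBO1 (from 49.7), intervals that cover counting error only.

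**Figure D2:**
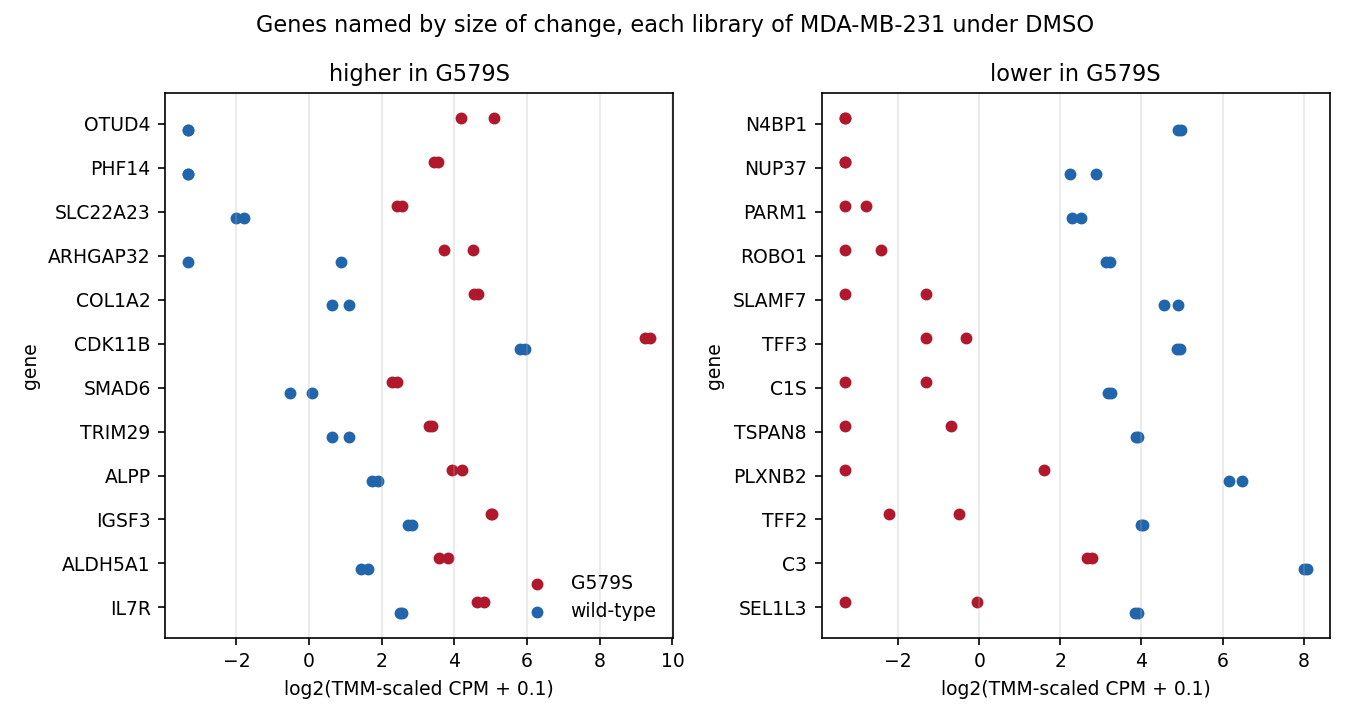
TMM-scaled CPM on a log2 scale, after adding 0.1, of the 12 genes with the largest rise (left panel) and the 12 with the largest fall (right panel) among called genes with 5 CPM or more in the higher group, with 1 point per library, red for G579S and blue for wild-type. Points at the left edge are libraries listed at 0, which include both wild-type libraries for OTUD4 and PHF14 and both G579S libraries for N4BP1 and NUP37.

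Other genes with large falls had reads in at least 1 G579S library. C3, the central complement protein, had 6.75 and 6.24 CPM in G579S libraries, against 258 and 270 CPM in wild-type libraries (-5.34 ± 0.27, adjusted p = 1.98e-10). TFF3, a trefoil peptide of mucous epithelia, had 0.692 and 0.301 CPM in G579S libraries, against 29.4 and 30.8 CPM in wild-type libraries (-5.93 ± 0.63, adjusted p = 8.1e-06). TFF2, another trefoil peptide, had 0.115 and 0.603 CPM, against 15.7 and 16.4 CPM (-5.41 ± 0.64, adjusted p = 0.000129). All 3 calls held, and in each the G579S libraries lay far below both wild-type libraries. SLAMF7, a receptor of immune cells, had 0 and 0.301 CPM in G579S libraries, against 29.6 and 23.4 CPM in wild-type libraries (adjusted p = 0.00221). TSPAN8, a tetraspanin, had 0 and 0.517 CPM, against 14.6 and 15 CPM (adjusted p = 0.00193), and SEL1L3 had 0.865 and 0 CPM, against 14.9 and 14.3 CPM (adjusted p = 0.00118). These calls held too. C1S, a complement protease, had 0 and 0.301 CPM, against 9.36 and 8.87 CPM (adjusted p = 0.00546, up to 0.0685). PLXNB2, a semaphorin receptor, had 0 and 2.93 CPM in G579S libraries, against 89 and 71.1 CPM in wild-type libraries (adjusted p = 0.0238, up to 0.219), but with OTS964 it was at 0 in 1 of the wild-type libraries as well.

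The genes were also read in lists by role, chosen with earlier results of these data known and described by counts beside the share of all genes tested. These shares are those of edgeR's calls. Counts by the other measures stand against 2858 of 14317 genes with an unadjusted p below 0.05, and against 891 higher and 999 lower by DESeq2. The list medians stood against a median of 0 for all genes. With library totals in place of TMM factors the medians of the NF-kB and antigen lists were -0.64 and -0.31, as with them. The TMM factors of the 4 libraries lay between 1.14 and 1.15, so this swap could hardly move the medians. Of 29 feedback genes and cytokines of NF-kB, the transcription factor of inflammatory signalling, 8 were lower and 0 higher in G579S cells (27.6% lower, against 4.55% of all genes), and the list's median difference was -0.64. Of this list 0 genes were higher at an unadjusted p below 0.05 in edgeR and 0 by DESeq2, which called 9 lower. Among the enzymes, SOD2, the mitochondrial superoxide dismutase, had 55.8 and 52.1 CPM in G579S libraries, against 142 and 147 CPM in wild-type libraries (-1.42 ± 0.09, adjusted p = 1.64e-09). PTGS2, the inducible cyclooxygenase, had 0 and 0.474 CPM in G579S libraries, against 8.76 and 8.49 CPM in wild-type libraries (-5.07 ± 0.89, adjusted p = 0.00198). Among secreted proteins LCN2, an iron-siderophore carrier, had 1.44 and 0.99 CPM, against 26.5 and 27.2 CPM (-4.46 ± 0.63, adjusted p = 0.000152). These 3 calls held, with wide gaps between the groups.

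The cytokines of that list had weaker calls. IL6 had 6.98 and 7.11 CPM in G579S libraries, against 21.7 and 19 CPM in wild-type libraries (-1.53 ± 0.40, adjusted p = 0.029, up to 0.184). The growth factor gene CSF2 fell by 2.37 (adjusted p = 0.0162, up to 0.13), IL1A by 2.19 (adjusted p = 0.034, up to 0.26) and the neutrophil chemokine gene CXCL1 by 1.33 (adjusted p = 0.0427, up to 0.324). ICAM1, an adhesion receptor, had 83 and 85.6 CPM in G579S libraries, against 121 and 126 CPM in wild-type libraries (-0.55, adjusted p = 0.0247, up to 0.174). In all 8 genes the groups did not overlap, as was so for 60.4% of all genes tested.

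The promoters of 3 of these 8 genes are shown because each holds the kappa-B motif that NF-kB binds, in capitals. The motif was searched on both strands from 250 bases before to 50 after the start of each gene in RefSeq's GRCh38.p14 sequences, and the lines below run 5′ to 3′ on the plus strand, which is the strand of each gene. LCN2 lies at chr9:128149203-128149502, IL6 at chr7:22726950-22727249 and CXCL1 at chr4:73869143-73869442, where 2 overlapping matches are printed as 1 run of capitals.
LCN2 promoter: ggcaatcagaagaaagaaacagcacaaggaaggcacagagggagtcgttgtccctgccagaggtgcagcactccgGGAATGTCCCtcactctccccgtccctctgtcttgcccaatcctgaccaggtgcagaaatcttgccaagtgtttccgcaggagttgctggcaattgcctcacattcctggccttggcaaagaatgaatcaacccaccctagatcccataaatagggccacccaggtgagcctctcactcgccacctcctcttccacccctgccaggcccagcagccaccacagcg
IL6 promoter: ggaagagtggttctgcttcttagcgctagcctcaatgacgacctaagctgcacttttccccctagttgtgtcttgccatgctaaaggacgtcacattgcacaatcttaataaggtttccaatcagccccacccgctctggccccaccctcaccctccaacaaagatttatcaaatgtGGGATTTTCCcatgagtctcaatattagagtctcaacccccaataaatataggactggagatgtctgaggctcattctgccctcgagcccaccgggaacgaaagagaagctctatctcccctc
CXCL1 promoter: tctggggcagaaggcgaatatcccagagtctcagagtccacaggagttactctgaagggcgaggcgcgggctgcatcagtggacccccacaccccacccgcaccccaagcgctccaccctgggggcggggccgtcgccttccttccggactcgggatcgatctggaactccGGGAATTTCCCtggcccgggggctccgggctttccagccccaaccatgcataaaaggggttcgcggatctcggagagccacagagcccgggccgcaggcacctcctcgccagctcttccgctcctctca
The motif occurred in 3 of 8 promoters of members lower in G579S (37.5%), in 9 of 16 promoters of the other members tested (56.25%) and in 1562 of 27305 promoters of all genes (5.72%). A match is one of letters only.

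Of 20 genes of antigen presentation 7 were lower and 0 higher in G579S cells (35.0% lower), with a median of -0.31, and DESeq2 likewise called 7 lower and 0 higher. Of these 7, 6 belong to the MHC class II pathway, which displays peptides of engulfed proteins. CD74, the invariant chain that escorts class II molecules, had 226 and 229 CPM in G579S libraries, against 488 and 495 CPM in wild-type libraries (-1.11 ± 0.18, adjusted p = 0.000575). HLA-DRA had 13.9 and 15.5 CPM, against 34.7 and 37.5 CPM (-1.29 ± 0.17, adjusted p = 0.00011), and HLA-DPA1 had 6.46 and 7.54 CPM, against 22.7 and 21.1 CPM (-1.64 ± 0.20, adjusted p = 9.92e-05). These 3 calls held. HLA-DPB1 (-1.02, adjusted p = 0.0166, up to 0.18) and the peptide-loading chains HLA-DMA (-1.10, adjusted p = 0.0173, up to 0.185) and HLA-DMB (-1.23, adjusted p = 0.012, up to 0.202) fell less firmly, as did the peptide transporter subunit TAP2 (-0.36, adjusted p = 0.0108, up to 0.137). HLA genes are alike in sequence, so their counts are uncertain where reads were shared.

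These 6 class II genes were higher in G579S cells of A375. There, CD74 averaged 2615 CPM in G579S and 865 CPM in wild-type cells (1.60, adjusted p = 4.91e-06), and in Cal51 7.23 CPM in G579S and 0.521 CPM in wild-type cells (3.77, adjusted p = 2.11e-07). The MDA-MB-231 difference of CD74 was lower than that of A375 by 2.71 (adjusted p = 8.45e-07) and than that of Cal51 by 4.88 (adjusted p = 6.61e-08). HLA-DRA averaged 815 CPM in G579S and 180 CPM in wild-type A375 cells, and its MDA-MB-231 difference was lower by 3.47 (adjusted p = 4.8e-08). HLA-DPA1, HLA-DPB1, HLA-DMA and HLA-DMB also rose in A375, by 1.81 to 2.76, and each differed from MDA-MB-231 there (adjusted p between 6.78e-07 and 2.89e-05).

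**Figure D3:**
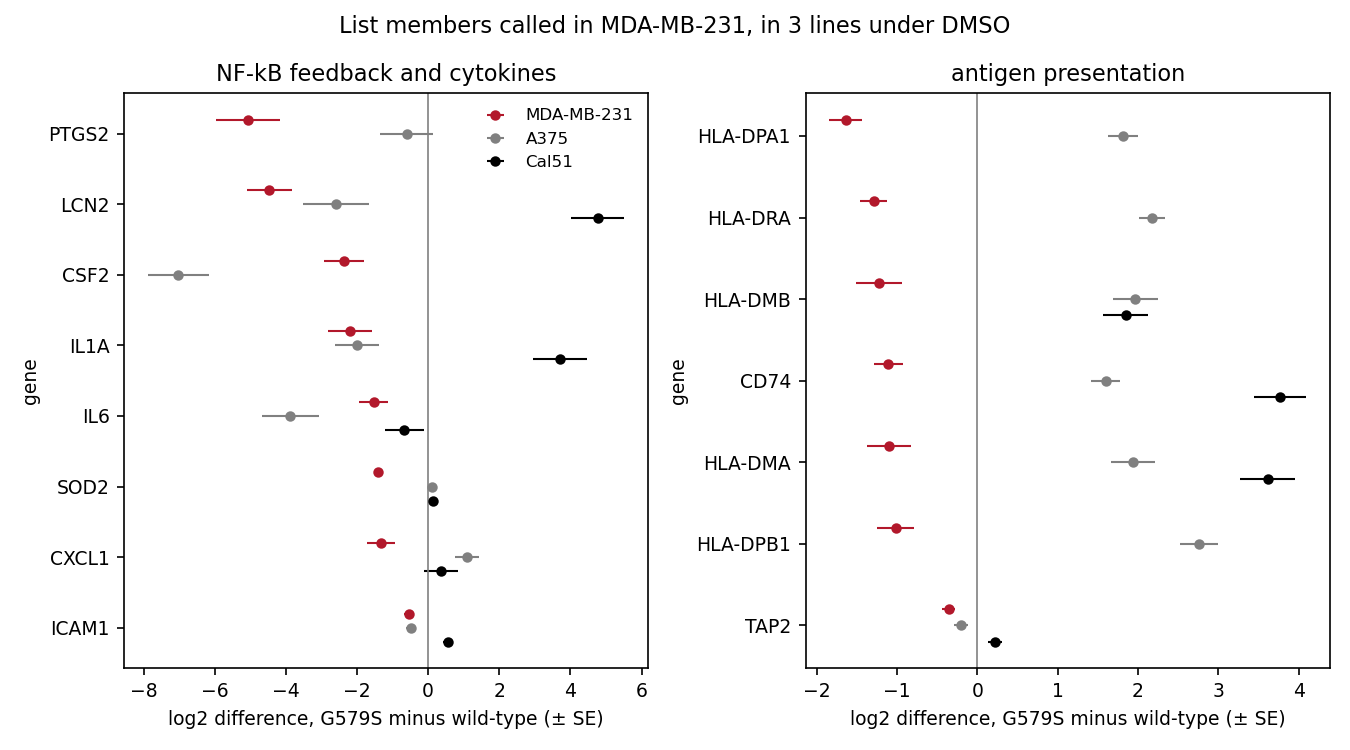
Log2 difference, G579S minus wild-type under DMSO, with its SE, for the members called in MDA-MB-231 in the list of NF-kB feedback genes and cytokines (left) and of antigen presentation (right), in MDA-MB-231 (red), A375 (grey) and Cal51 (black). Points are left out where a genotype of a line was listed at 0 in both libraries. The 6 class II genes lie left of 0 in MDA-MB-231 and right of it in A375.

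Of 22 genes of epithelial and luminal identity 5 were lower and 1 higher, with a median of -0.39. These were 22.7% lower and 4.55% higher, against 4.55% and 2.74% of all genes. AGR2, a disulfide isomerase of secretory epithelia, had 0.634 and 0.517 CPM in G579S libraries, against 14.6 and 15.6 CPM in wild-type libraries (-4.71 ± 0.26, adjusted p = 8.98e-09). CDH1, which encodes E-cadherin, had 1.33 and 1.25 CPM, against 3.69 and 3.74 CPM (-1.53 ± 0.21, adjusted p = 0.000377). Both calls held. The trefoil gene TFF1 (-4.28, adjusted p = 0.0103, up to 0.115), the luminal transcription factor gene SPDEF (-3.55, adjusted p = 0.0146, up to 0.145) and the keratin gene KRT18 (-0.45, adjusted p = 0.0484, up to 0.301) fell less firmly. EPCAM rose, with 29.5 and 31.1 CPM in G579S libraries, against 16.8 and 18.7 CPM in wild-type libraries (0.77, adjusted p = 0.016, up to 0.162). The whole list summed to 2310 CPM in each G579S library, against 3128 and 3085 CPM in wild-type libraries. In bulk libraries a smaller number of cells with these transcripts and a lower level per cell cannot be told apart.

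Of 26 mesenchymal genes 3 were higher and 2 lower (11.5% and 7.69%, against 2.74% and 4.55% of all genes), and DESeq2 called 7 higher and 2 lower. VIM, the intermediate filament of mesenchymal cells, had 2304 and 2424 CPM in G579S libraries, against 3670 and 3642 CPM in wild-type libraries (-0.63 ± 0.10, adjusted p = 0.000414), and this call held. CAV1, the coat protein of caveolae, had 1088 and 1091 CPM, against 776 and 766 CPM (0.50 ± 0.10, adjusted p = 0.00428, up to 0.0539). ACTA2, the smooth muscle actin, had 4.79 and 4.87 CPM, against 2.04 and 1.58 CPM (1.41 ± 0.29, adjusted p = 0.00427, up to 0.0836). TNC, a matrix protein of wounds and tumours, was at 0 in both G579S libraries, against 3.04 and 3.93 CPM in wild-type libraries, at least 23.1-fold lower (adjusted p = 0.00132), and this call held. With OTS964 it had 4.4 and 1.75 CPM in G579S libraries, against 12.6 and 8.41 CPM in wild-type libraries (adjusted p = 0.0538).

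Among proteases that cut the matrix and their inhibitors, 6 of 33 fell and 0 rose by edgeR (18.2% lower), with a median of -0.15, while DESeq2 called 7 lower and 2 higher and 3 were higher at an unadjusted p below 0.05. ADAMTS1, a secreted metalloprotease, had 1.21 and 0.818 CPM in G579S libraries, against 26.9 and 26.8 CPM in wild-type libraries (-4.74 ± 0.23, adjusted p = 4.37e-10). MMP1, the interstitial collagenase, had 1.21 and 0.818 CPM, against 24.8 and 25.2 CPM (-4.62 ± 0.43, adjusted p = 1.64e-06). MMP14, the membrane-bound metalloprotease, had 609 and 602 CPM, against 965 and 966 CPM (-0.67 ± 0.11, adjusted p = 0.000478). All 3 calls held. PLAT, the tissue plasminogen activator, fell by 0.61 (adjusted p = 0.0129, up to 0.121). The ADAMTS1 fall was larger than that of A375, by 2.76 (adjusted p = 7.85e-06), and than that of Cal51, by 4.08 (adjusted p = 6.76e-08).

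Sublines of MDA-MB-231 selected for spread to bone or lung are textbook models of metastasis, and their marker genes were listed. Of 10 bone genes 4 were lower and 0 higher by edgeR (40.0% lower, median -0.74), with 2 higher at an unadjusted p below 0.05 and 1 higher by DESeq2. Of 20 lung genes 8 were lower and 2 higher by edgeR (40.0% lower, median -0.65). In the lung list 9 were lower and 6 higher at an unadjusted p below 0.05, and DESeq2 called 9 lower and 4 higher. MMP1 and ADAMTS1 account for part of these counts. DUSP1, a phosphatase of MAP kinases, had 12.5 CPM in each G579S library, against 26.1 and 28.5 CPM in wild-type libraries (-1.13 ± 0.15, adjusted p = 0.000115). FST, which encodes the activin antagonist follistatin, fell by 1.15 ± 0.20 (adjusted p = 0.00155). KYNU, an enzyme of tryptophan breakdown, had 0.288 and 0.172 CPM in G579S libraries, against 5.38 and 4.8 CPM in wild-type libraries (-4.47 ± 0.42, adjusted p = 1.14e-06), and the mannosidase gene MAN1A1 fell by 2.73 ± 0.34 (adjusted p = 3.76e-05). ID1, a dominant-negative partner of helix-loop-helix factors and a target of bone morphogenetic proteins, rose, with 101 and 98.9 CPM in G579S libraries, against 40.7 and 37 CPM in wild-type libraries (1.36 ± 0.21, adjusted p = 0.000412). These 5 calls held. No cell was assayed for movement or growth in an animal here.

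In the TGF-beta and BMP list 3 of 29 genes were higher and 6 lower (10.3% and 20.7%, against 2.74% and 4.55% of all genes). The list's median was -0.19. Among ligands INHBA, the activin A chain, had 1.67 and 2.07 CPM in G579S libraries, against 11.2 and 11.6 CPM in wild-type libraries (-2.59 ± 0.37, adjusted p = 0.000478), and the call held, while BMP2 fell by 2.63 (adjusted p = 0.0166, up to 0.151). Among receptors BMPR2 had 219 and 174 CPM, against 84.3 and 86.8 CPM (1.20 ± 0.25, adjusted p = 0.00459, up to 0.0727). Among target and feedback genes SMAD6 and ID1 rose, as above, and ID2 (-1.03, adjusted p = 0.0484, up to 0.343) and ID4 (-2.68, adjusted p = 0.0111, up to 0.322) fell. In the Wnt and Notch list, 1 of 36 genes was higher and 3 lower (2.78% and 8.33%). JAG1, a Notch ligand, had 76.2 and 65.7 CPM in G579S libraries, against 230 and 237 CPM in wild-type libraries (-1.72 ± 0.14, adjusted p = 1.16e-07). It fell in A375 as well, by 1.61, and the difference between these lines was -0.11 (adjusted p = 0.88).

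Stress and metabolic lists were mixed. Of 25 targets of NRF2, the transcription factor of the oxidant response, 5 were higher and 1 lower (20.0% higher, against 2.74% of all genes), with a median of 0.22. PIR, an iron-binding protein, had 8.19 and 7.06 CPM in G579S libraries, against 2.99 and 3.26 CPM in wild-type libraries (1.28 ± 0.22, adjusted p = 0.000925), and held. NQO1, a quinone reductase, had 217 and 229 CPM, against 127 and 122 CPM (0.84 ± 0.17, adjusted p = 0.0041, up to 0.0565). AKR1C3 rose by 1.19 (adjusted p = 0.00788, up to 0.0921), the cystine transporter gene SLC7A11 by 1.08 (adjusted p = 0.0201, up to 0.188) and GCLC, the rate-limiting enzyme of glutathione synthesis, by 0.66 (adjusted p = 0.0264, up to 0.297). AKR1B1, the aldose reductase, fell, with 207 and 206 CPM in G579S libraries, against 538 and 539 CPM in wild-type libraries (-1.38 ± 0.16, adjusted p = 1.2e-05), and held. NQO1 also rose in A375 and Cal51, by 0.95 (adjusted p = 0.000722) and 0.69 (adjusted p = 0.0074). The metallothionein genes MT1E and MT1F and the zinc exporter gene SLC30A1 were the 3 of 10 metal genes called, all higher (30.0%), with adjusted p of up to 0.26, 0.0776 and 0.175 when 1 library was left out. The metallothionein and AKR1C genes have near-identical relatives, so their counts are uncertain.

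Of 30 targets of ATF4 and the unfolded protein response, 4 were higher and 6 lower, with a median of -0.28. These were 13.3% and 20.0%, against 2.74% and 4.55% of all genes. ASNS, the asparagine synthetase, had 61 and 63.3 CPM in G579S libraries, against 96.6 and 94.1 CPM in wild-type libraries (-0.62, adjusted p = 0.00646, up to 0.0761). SLC7A5, the large neutral amino acid transporter, had 1857 and 1905 CPM in G579S libraries, against 1101 and 1095 CPM in wild-type libraries (0.78, adjusted p = 0.0387, up to 0.198). In glycolysis and hypoxia 2 of 33 genes were higher and 5 lower (6.06% and 15.2%). ENO2, an enolase, fell by 0.96 ± 0.13 (adjusted p = 9.92e-05, held), VEGFA, the angiogenic growth factor, by 1.07 (adjusted p = 0.00402, up to 0.0733) and ALDOA, an aldolase, by 0.50 (adjusted p = 0.0225, up to 0.184), while the pyruvate kinase gene PKM rose by 0.48 (adjusted p = 0.00683, up to 0.0752). SCD, the desaturase of fatty acid synthesis, had 199 and 198 CPM in G579S libraries, against 382 and 407 CPM in wild-type libraries (-0.99 ± 0.10, adjusted p = 1.99e-06), and held. It was 1 of 2 called among 29 lipid genes, ELOVL5 being the other (0.53, adjusted p = 0.0127, up to 0.129).

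Of 78 cytosolic ribosomal protein genes 73 had negative differences, with a median of -0.31, but 5 were called, all lower (6.41%, against 4.55% of all genes). At an unadjusted p below 0.05 in edgeR 36 were lower and 0 higher, and DESeq2 called 12 lower and 0 higher. RPL10 had 553 and 541 CPM in G579S libraries, against 1024 and 1006 CPM in wild-type libraries (-0.89 ± 0.13, adjusted p = 0.000286), and the calls of RPL10, RPL39 and RPS12 held. These genes have many processed copies, so their counts are uncertain. The list summed to 36630 and 37460 CPM in G579S libraries, against 44560 and 44290 CPM in wild-type libraries. Among 29 replication-dependent histone genes the median was 0.74, with 2 called higher: H2BC12, with 83.5 and 88.7 CPM, against 32.4 and 36 CPM (1.33 ± 0.14, adjusted p = 3.45e-06), and H1-2, with 27.1 and 28 CPM, against 13.1 and 13.4 CPM (1.06 ± 0.17, adjusted p = 0.000577). Both held. Histone genes are near-identical to each other, and most of their transcripts lack a poly(A) tail and are poorly caught by an mRNA kit.

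Of 40 genes of DNA replication 1 (2.5%) was called, MCM3, a helicase subunit (0.37, adjusted p = 0.042, up to 0.232). Of 40 genes of mitosis 4 were higher and 1 lower (10.0% and 2.5%, against 2.74% and 4.55% of all genes), and DESeq2 called 9 higher and 2 lower. PRC1, which bundles microtubules of the central spindle, had 427 and 438 CPM in G579S libraries, against 276 and 269 CPM in wild-type libraries (0.67 ± 0.08, adjusted p = 1.89e-05), and MYBL2, a transcription factor of cycling cells, had 131 and 136 CPM, against 236 and 226 CPM (-0.79 ± 0.09, adjusted p = 8.21e-06). Both held. Of 19 BCL2 family genes and 13 EGFR ligands and ERBB receptors edgeR called none. In the BCL2 family 2 were lower at an unadjusted p below 0.05 and DESeq2 called 1 lower, and among EGFR ligands and receptors 1 was higher and 2 lower at an unadjusted p below 0.05 and DESeq2 called 1 lower.

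Among matrix proteins other than collagens 2 of 35 were higher and 4 lower (5.71% and 11.4%, against 2.74% and 4.55% of all genes). EFEMP1, a fibulin of the extracellular matrix, had 179 and 202 CPM in G579S libraries, against 88 and 81.6 CPM in wild-type libraries (1.17 ± 0.18, adjusted p = 0.00135), and held. THBS1, which encodes thrombospondin 1, had 4222 and 3898 CPM, against 2776 and 2816 CPM (0.54, adjusted p = 0.0347, up to 0.234). Among 23 collagens COL1A2 was the 1 higher and COL4A1 (-0.56, adjusted p = 0.03, up to 0.186) and COL17A1 (-1.06, adjusted p = 0.0139, up to 0.139) were lower. The collagens called were 4.35% of their list higher and 8.7% lower. Of 31 integrins and cadherins 2 were higher and 4 lower (6.45% and 12.9%). ITGA5, the fibronectin receptor chain, had 138 and 145 CPM in G579S libraries, against 225 and 236 CPM in wild-type libraries (-0.71 ± 0.12, adjusted p = 0.00112), ITGB2, a chain of leukocyte integrins, fell by 2.03 ± 0.36 (adjusted p = 0.00139) and the protocadherin gene PCDH1 rose by 1.17 ± 0.21 (adjusted p = 0.00149). These 3 held.

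The remaining lists stand against 2.74% higher and 4.55% lower of all genes. Interferon genes had 1 higher and 2 lower of 38, p53 targets 1 higher and 3 lower of 20 (5.00% and 15.0%), immediate early genes 1 higher and 2 lower of 23, ERK feedback genes 1 lower of 18 and YAP targets 1 higher and 1 lower of 20. Amino acid carriers had 3 higher and 2 lower of 20 (15.0% and 10.0%), and SLC1A4 (0.82, adjusted p = 0.00182) and SLC1A5 (-0.48, adjusted p = 0.00413), carriers of neutral amino acids, held. Cholesterol genes had 1 higher and 2 lower of 24. Nuclear genes of oxidative phosphorylation had 4 lower of 71, cancer testis antigens 2 higher and 1 lower of 22, HOX genes 1 higher of 36, heat shock chaperones 1 higher of 22, basal markers 1 higher and 2 lower of 16 (6.25% and 12.5%) and drug efflux transporters 1 lower of 9.

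**Figure D4:**
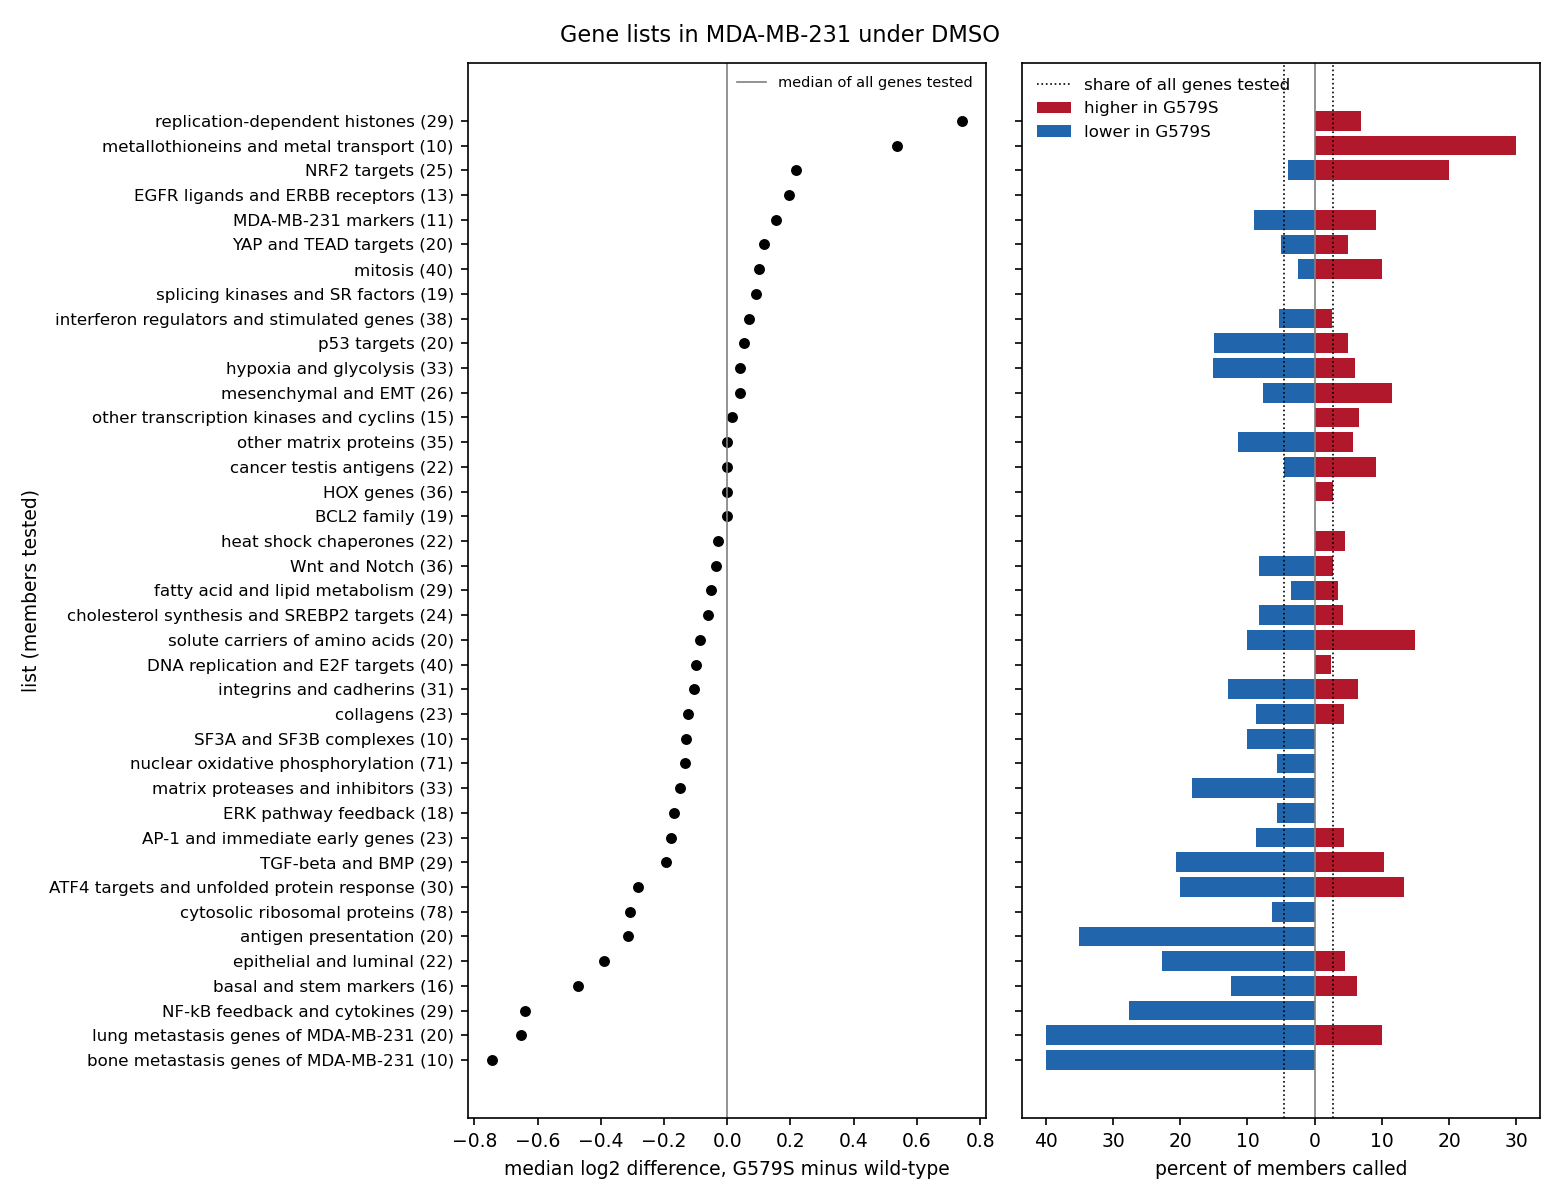
Left, the median log2 difference of each gene list with 10 or more members tested, G579S minus wild-type in MDA-MB-231 under DMSO, with the median of all genes tested as a line at 0. Right, the percent of each list's members called higher (red) or lower (blue), with the shares of all genes tested, 2.74% higher and 4.55% lower, as dotted lines; bone and lung genes (40.0% lower) and antigen presentation (35.0% lower) reach farthest to the left.

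Transcript usage was called in 7 of 7053 genes (0.0992%). In SYNCRIP, an RNA-binding protein of the hnRNP family, NM_001159677.1 was at 0 in both G579S libraries, against 1288 and 646 counts in wild-type libraries (usage adjusted p = 2.25e-11). In PIGO, an enzyme of the GPI anchor, NM_032634.3 was at 0 in both, against 242 and 213 counts (adjusted p = 8.66e-06). In ATP2A2, the calcium pump of the endoplasmic reticulum, NM_001681.3 was at 0 in both, against 364 and 875 counts (adjusted p = 0.000198). The calls of AREL1, SEC22C and CC2D2A likewise each had a transcript at 0 in both G579S libraries. That of MGAT1 had 464 counts of NM_001114619.1 in G579S replicate 1 and 0 in the other 3 libraries. With OTS964 these transcripts of SYNCRIP, PIGO and ATP2A2 were present in both G579S libraries, at 466 and 293, 195 and 50, and 91 and 226 counts.

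The same cells were also sequenced with OTS964, in libraries that share none with the DMSO comparison. Genotype and drug response are mixed there, since the design text calls wild-type cells sensitive and G579S cells resistant. Between G579S and wild-type cells with OTS964, 6510 of the 14317 genes (45.5%) differed, 3099 higher (21.6%) and 3411 lower (23.8%). With library totals in place of TMM factors that split was 4386 higher and 1961 lower. The wild-type OTS964 libraries were the least alike of the pairs of this line (r = 0.943 across genes), and 5532 genes were called without replicate 1 of them and 7020 without replicate 2. Of the 392 genes higher in G579S cells with DMSO, 308 (78.6%) had the same sign with OTS964 and 220 were called the same way, which is 56.1% of the 392 and 7.1% of the 3099. Of the 651 lower genes, 605 (92.9%) had the same sign and 552 were called the same way, which is 84.8% of the 651 and 16.2% of the 3411. In the opposite direction 34 of the 392 and 22 of the 651 were called.

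CDK11B kept its difference with OTS964 (3.72, adjusted p = 2e-11), as did C3 (-6.45, adjusted p = 1.12e-11), COL1A2 (2.88, adjusted p = 6.3e-07), ADAMTS1 (-5.26, adjusted p = 4.58e-11) and CD74 (-2.06, adjusted p = 4.83e-08). ANKRD1, a target gene of YAP, had opposite signs in the paired treatments: with DMSO it had 196 and 212 CPM in G579S libraries, against 468 and 439 CPM in wild-type libraries (-1.15 ± 0.20, adjusted p = 0.00108, held), and with OTS964 it was higher in G579S cells by 1.55 (adjusted p = 4.42e-06). SESN2, a stress-induced regulator of growth signalling, did too, at -0.81 with DMSO (adjusted p = 0.00398, up to 0.097) and 1.15 with OTS964 (adjusted p = 1.99e-05). JAG1 and FST did not pass the threshold with OTS964 (-0.30, adjusted p = 0.0831, and -0.31, adjusted p = 0.231). The change of a difference between DMSO and OTS964 was not tested.

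**Figure D5:**
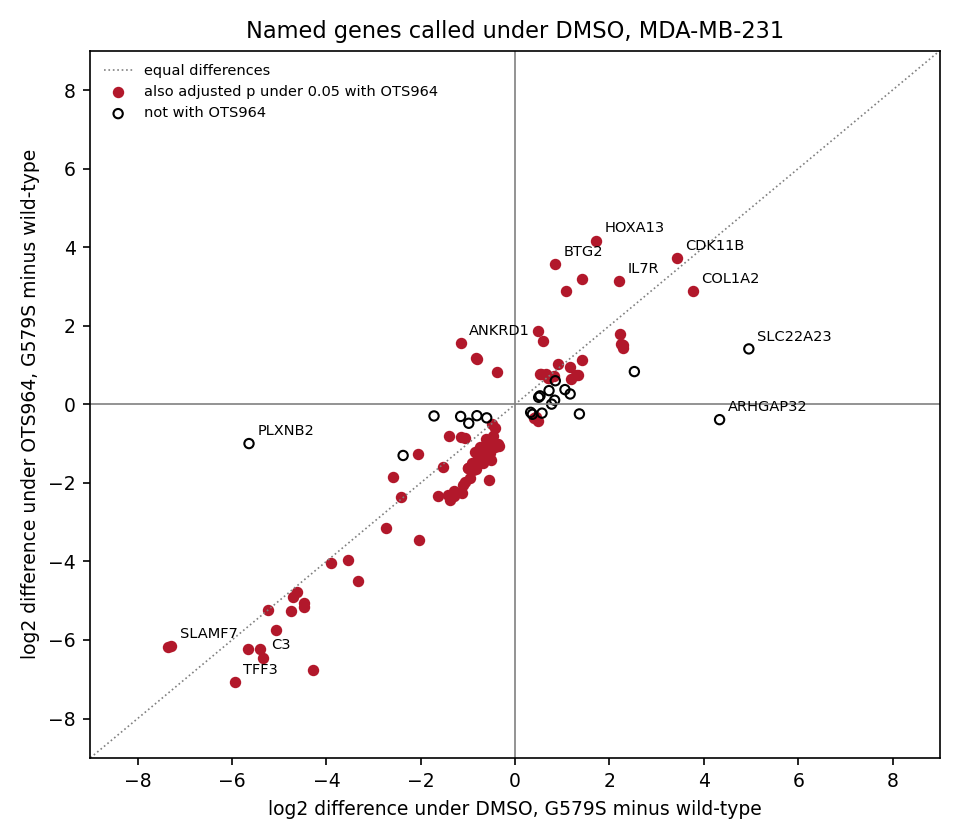
Log2 difference, G579S minus wild-type in MDA-MB-231, with OTS964 (vertical axis) against DMSO (horizontal axis), for 117 of the 127 genes named by rule and called with DMSO; the other 10, with NUP37 among them, had a group at 0. Filled points (95) were also called with OTS964 and open points (22) were not; 105 of the 117 had the same sign in both, and ANKRD1 lies to the upper left.

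Between lines, the genotype difference of MDA-MB-231 differed from that of A375 in 1250 genes (8.73%) and from that of Cal51 in 1920 (13.4%). Within each of those lines 1398 (9.76%) and 2436 genes (17.0%) were called. The direction of the difference from A375 was higher in 4.16% of genes and lower in 4.57%, and from Cal51 higher in 4.68% and lower in 8.73%. Of the 1043 genes called in MDA-MB-231, 308 (29.5%) differed from both other lines, 104 of them higher and 204 lower. The shares called within the lines were 4.39% higher and 5.38% lower in A375, and 10.3% higher and 6.74% lower in Cal51. Of the 392 higher genes 52 were called higher in A375 and 51 lower, and 80 were called higher in Cal51 and 51 lower. Of the 651 lower genes 85 were called lower in A375 and 66 higher, and 81 were called lower in Cal51 and 139 higher. C3 fell in A375 as well, by 2.68 (adjusted p = 9.88e-07), but rose in Cal51 by 3.51 (adjusted p = 7.2e-08), and its MDA-MB-231 difference was lower than that of A375 by 2.67 (adjusted p = 5.45e-05) and than that of Cal51 by 8.86 (adjusted p = 4.19e-11). SMAD6 averaged 16.8 CPM in G579S and 15.1 CPM in wild-type A375 cells, and 73.8 CPM in G579S and 73.4 CPM in wild-type Cal51 cells, and was called in neither (adjusted p = 0.797 and 1).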

How the data were processed

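Each library came as 1 deposited table of 87398 human RefSeq transcript identifiers with their length in bases, estimated counts and TPM, per the file headers. The authors deposited these estimated counts unscaled and not whole, and deposited TPM that corrects for length and depth. The program was not stated in the sources used here, and the submitters' processing notes name only mouse builds. Per the labels' protocols, RNA was column-purified and made into mRNA libraries. Identifiers were matched to symbols through RefSeq and GENCODE tables (42589, 48.7%), and the estimated counts were summed by gene and rounded. The other identifiers stayed out of library sizes and gene tests.

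Genes were tested with edgeR 4.0.16 (limma 3.58.1, R 4.3.3) by the robust quasi-likelihood F test, with TMM scaling, filterByExpr by group and Benjamini-Hochberg adjustment. It was 1 fit of all 32 libraries in 16 groups (16 residual degrees of freedom). The code was tried on counts simulated with the same spread for every gene, which cannot show how the test does where the spread differs among genes. Other lines entered as contrasts of the same fit. Transcript usage was tested with diffSpliceDGE and Simes' method. Alternatives were DESeq2 1.42.0, other scaling, filters and identifiers, a replicate block and each library left out.

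The genes, the 44 lists and the tests were chosen with earlier results of these data known. Named genes were the 12 largest rises and 12 largest falls (called, no overlap, 5 CPM or more), CDK11 and partners, up to 4 called members per list by adjusted p (the 2 lowest where none was called), the 6 lowest p-values of usage and the 6 largest differences from both other lines. All called NF-kB and antigen members, and some other called members, were named beyond this rule after their values were seen. Replicates of a group differed beyond sampling noise, with a chi-square per degree of freedom of 14.2 in G579S and 7.22 in wild-type.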

Additional observations from a re-analysis of the deposited data

Results flagged for a closer look

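The genotype difference of MDA-MB-231 differed from that of A375 in 1250 genes and from that of Cal51 in 1920 genes, by edgeR's test of the difference itself. Of the 145 genes named by rule the difference was called against both lines in 49. For the 14 of these that are among the largest rises and falls, CDK11 and its partners or the largest differences from both lines, it is given here as the log2 difference in MDA-MB-231 minus the mean of the log2 differences in A375 and Cal51. Higher in MDA-MB-231 were PHF14 by 10.7, ALPP by 4.40, CDK11B by 3.65, SMAD6 by 2.60, ALDH5A1 by 2.35 and IGSF3 by 1.87. Lower were N4BP1 at -11.82, TFF3 at -11.07, DENND6B at -10.82, NUP37 at -9.22, PARM1 at -9.05, ROBO1 at -6.69, C3 at -5.76 and SEL1L3 at -5.38. For PHF14, N4BP1, NUP37 and DENND6B, with a group at 0 in MDA-MB-231, the fitted values depend on the prior count and are no bounds. The same holds for TFF3, which was at 0 in both wild-type A375 libraries, against 0.407 and 0.416 CPM in G579S A375 libraries.

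Of 20044 tested transcript identifiers that matched no gene symbol, 39 (0.195%) were called between G579S and wild-type MDA-MB-231 cells with DMSO, 11 higher and 28 lower. They lie outside the gene tests.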

How the results depend on the processing

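CDK11B and the sum of CDK11A and CDK11B kept direction and call under every alternative run. The count of called genes, 1043, was 1890 by DESeq2 (891 higher, 999 lower), 280 with MDA-MB-231 libraries only (132 higher, 148 lower) and between 411 and 503 with 1 library left out (130 to 169 higher, 246 to 334 lower), where the lone library of an arm is assumed to vary like the other groups. It was 1016 with RLE factors, 1139 with library totals, 965 without a filter, 1107 on TPM scaled by gene length, 951 with curated identifiers and 1367 with the 4 DLD1 wild-type libraries left out. Same-numbered libraries had deviations correlated at -0.00969 and share only a number, and a fit with the replicate block called 929, of which 894 were among the 1043. The difference from A375 had 2071 by DESeq2 (1016 higher, 1055 lower) and 770 to 928 without 1 library (380 to 454 higher, 372 to 474 lower). That from Cal51 had 1121 higher by DESeq2 and 1199 to 3164 in all without 1 library (370 to 1339 higher, 822 to 1825 lower), with 3164 without Cal51 G579S replicate 1. With OTS964 library totals gave 1961 lower, against 3411. Transcript usage had 4 to 8 calls without 1 library, with 4 without G579S replicate 2.

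Over 165 genes with values, 1733 values stayed on the same side of the threshold, 388 called values lost the call, 12 gained one and 7 changed sign. The signs changed for CCNL1 (-0.38 without G579S replicate 1 to 0.46 without G579S replicate 2, and -0.15 without wild-type replicate 1), CCNL2 (-0.28 without G579S replicate 2 to 0.43 without G579S replicate 1), SYNCRIP (-0.071 with curated identifiers, and -0.063 without G579S replicate 1 to 0.20 without G579S replicate 2), AREL1 (-0.0052 without G579S replicate 1 to 0.068 without G579S replicate 2) and SEC22C (0.03 on scaled TPM), none of which was called as a gene. The cause was not tested. TRIM29 gave no value with curated identifiers, and some genes, ID4, LYZ and SOX2 among them, gave none with MDA-MB-231 libraries only. Reads of near-identical genes and transcripts at 0 limit what the tables resolve. The 2 libraries a group limit precision, and a gene listed at 0 among the 15216279 matched reads of the shallowest library may still have up to 3.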

Other observations

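Several families of secreted proteins had members that were lower in G579S cells; they were listed after their values were seen, so the counts are descriptions. Among salivary-type cystatins, inhibitors of cysteine proteases, CST1 had 24.6 and 23.9 CPM in G579S libraries, against 529 and 544 CPM in wild-type libraries (-4.47 ± 0.23, edgeR adjusted p = 1.61e-07). CST4 had 9.4 and 8.27 CPM, against 275 and 279 CPM (-4.97 ± 0.22, adjusted p = 5.78e-06). Their sequences are alike, so the split of reads between them is uncertain. CST6, of another branch of the family, was higher, with 17.4 and 19.5 CPM in G579S libraries, against 3.24 and 5.18 CPM in wild-type libraries (2.13, adjusted p = 0.022, but 0.216 at the highest with 1 library left out). Of 23 complement genes 5 were lower (21.7%, against 4.55% of all genes) and 0 higher: C3, C1S, C1R, CFB and CD59. The C1S call was lost with 1 library left out (adjusted p up to 0.0685), and the other 4 were not. CFB, a protease of the alternative pathway, had 13.9 and 16.1 CPM in G579S libraries, against 99.8 and 94.4 CPM in wild-type libraries (-2.69 ± 0.33, adjusted p = 5.62e-05). In Cal51, C3, C1S, C1R and CFB were higher in G579S cells instead, by 1.91 to 3.51 (adjusted p between 7.2e-08 and 0.0206).

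Along the genome, the median difference was taken over runs of 41 neighbouring genes, in the order of RefSeq's GRCh38.p14 gene table, with 95% of 9418 runs between -0.37 and 0.35. The 6 runs given here had medians outside that range, so their signs and counts of calls follow in part from it. Of all genes tested, 2.74% were called higher and 4.55% lower. The run from WASF1 to TMEM200A had a median of -0.60, with 39 of 41 genes negative and 13 called lower, and of -0.14 with OTS964. The run from CDIPT to VKORC1 had -0.53 with DMSO and -0.75 with OTS964, and 14 genes were called lower. The run from WHAMM to PRC1 had 0.51 with DMSO and 0.67 with OTS964, with 12 called higher. The run from GMPR to PGBD1 had 0.49 with DMSO and 0.75 with OTS964, with 9 called higher and 2 lower, and that from SLC7A7 to KHNYN had -0.44 and -0.90, with 12 called lower. The run from RPL34 to SLC7A11 had 0.44 and 0.66, with 7 called higher. PRC1 and SLC7A11, given above by role, lie at the ends of such runs. Other genes given above may lie inside these runs, and which ones do was not listed. These 6 runs had medians between -0.17 and 0.15 in A375 and Cal51. Neighbouring genes are not independent, and no test was made.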
